A study of Mus musculus with 4 samples.

Results

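The microvillus cytoskeleton genes compared here are 8 mouse genes, Vil1, Pls1, Espn, Myo1a, Myo7b, Ezr, Ush1c and Eps8. They were chosen by symbol as genes of known proteins of the enterocyte microvillus, with earlier results of these data known. All 8 were found among the 20915 genes of the exon table that the authors deposited with their reads. The samples are whole tissue of C57BL/6 mice with an age of 9 to 10 in the labels, with no unit there and weeks in the study's methods, and no treatment. The study's methods name the jejunum as the small intestine sample and the distal colon as the colon sample. In the cDNA fragmented protocol, polyadenylated RNA was copied into SMART cDNA, which was then fragmented, with 1 library from small intestine and 1 from colon. In the second protocol, RNA itself was fragmented and sequenced by strand, again with 1 library from each tissue. The labels give ribosomal RNA-depleted RNA for this second pair, whereas the study's methods describe polyadenylated RNA for RNA fragmentation, and the name in the labels is used here. Read totals of this pair are far below those that the study reports for its RNA fragmented libraries, so the pair may not be that set. The study's text describes both tissues as taken from the same mice. Which mouse or mice went into each library, and whether the protocols share them, is not given in the sources used here.

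Enterocytes, the absorptive cells of the intestinal epithelium, carry a dense array of microvilli on their apical face, the brush border. Each microvillus has a core of parallel actin filaments that is held together by the bundling proteins villin, plastin 1 (also called fimbrin) and espin. Brush border myosin I ties this core to the membrane along its sides, ezrin links actin to membrane proteins, and a complex of protocadherins, harmonin, ANKS4B and the motor myosin VIIB joins neighbouring tips. Enterocytes of the small intestine and absorptive cells of the colon both have a brush border.

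Uniquely placed reads numbered 22484041 for small intestine and 24798934 for colon by cDNA fragmentation, and 2035386 and 3478387 by ribosomal RNA depletion. Levels are given as RPKM, reads per 1000 exonic bases and per 1000000 uniquely placed reads. Intervals are exact 95% intervals that cover counting error only and take each read as independent, which amplified reads are not. A gene was called higher in a tissue when its RPKM was at least 3 times that of the other tissue after a penalty of 1 RPKM had been added to the divisor. With 1 library per tissue and protocol, a difference cannot be set against the spread between mice, so no test between tissues was run within a protocol. The labelled tissues were checked with lists of marker genes. All 6 markers of small intestinal enterocytes were called higher in small intestine and all 4 colonocyte markers higher in colon in both protocols, although Car1, one of these 4, had 0 reads in small intestine by cDNA fragmentation.

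Of the 8 genes, 3 were called higher in small intestine in the cDNA fragmented protocol, Pls1, Vil1 and Myo1a, and none in colon. Among all 16517 genes present in this protocol, 2.72% were called higher in small intestine and 3.21% higher in colon. In the ribosomal RNA-depleted protocol 5 of the 8 genes were called higher in small intestine, the same 3 together with Ezr and Myo7b, and again none in colon. The background there was 3.69% of 15109 genes for small intestine and 6.57% for colon. With median-of-ratios scaling these shares were 3.52% and 2.17% in the first protocol and 5.05% and 4.16% in the second. The median of the log2 ratios (colon over small intestine) of the 8 genes was -1.22 in the cDNA fragmented and -1.83 in the ribosomal RNA-depleted protocol, beside medians over all genes of 0.41 and 0.36. In the cDNA fragmented protocol 7 of the 8 genes lay below 0, with Ush1c as the exception, and in the ribosomal RNA-depleted protocol all 8 did. Among all genes with reads in both tissues, 33.9% and 36.9% lay below 0.

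The 4 libraries were also fitted together with limma, with tissue and protocol as terms, on log2 of RPKM plus 1 over the 12429 genes with a mean of at least 1 RPKM. This fit, added after the data were seen, has 1 residual degree of freedom per gene. Its error was moderated with 12.2 prior degrees of freedom, taken from the disagreement between the protocols over all genes by level. The standard errors thus rest mostly on other genes, and they do not measure the spread between mice. By Benjamini-Hochberg adjusted p, 4 of the 8 genes were lower in colon, beside 4.53% of all genes, and none was higher, beside 8.67%. These were Pls1 (-2.75 ± 0.38 SE on the log2 scale, adjusted p = 0.000232), Myo1a (-2.47 ± 0.42, 0.00127), Vil1 (-1.80 ± 0.37, 0.00494) and Ezr (-1.81 ± 0.41, 0.00921), each lower in colon in both protocols. Myo7b (-1.08 ± 0.44, 0.126), Espn (-0.90 ± 0.38, 0.146), Eps8 (-0.38 ± 0.38, 0.556) and Ush1c (0.01 ± 0.41, 0.991) did not pass this test.

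The summed RPKM of the 8 genes was 2008 in small intestine and 500.8 in colon by cDNA fragmentation, and 2185 and 557.3 by ribosomal RNA depletion. The 8 genes together thus took 0.670% and 0.167% of all uniquely placed reads in the first pair of libraries, and 0.718% and 0.185% in the second pair. In whole tissue, fewer cells of a type and less RNA per cell cannot be told apart. Summed RPKM of 8 epithelial markers was 9555 in small intestine and 5280 in colon by cDNA fragmentation, and 3919 and 6253 by ribosomal RNA depletion. Krt20 alone took 7525 and 2503 RPKM of the first pair of sums, and without it the other 7 markers summed to 2030 and 2777 by cDNA fragmentation and to 3265 and 6136 by ribosomal RNA depletion. The median log2 ratio of the 8 markers was 0.41 and 0.43, close to the median over all genes. Krt20 was called higher in small intestine and Krt19 higher in colon in both protocols. Epcam had 736.7 and 471.0 RPKM by cDNA fragmentation and 583.1 and 529.8 by ribosomal RNA depletion in small intestine and colon. Krt8, Krt18 and Cldn3 of the same list were higher in colon in both protocols. In the same order of libraries, Krt8 had 374.7, 579.5, 1127 and 2485 RPKM. Krt18 had 92.3, 209.9, 90.2 and 246.2, and Cldn3 had 54.6, 127.2, 86.3 and 173.3. Of the 8 markers, 3 had ratios below 0 by cDNA fragmentation and 4 by ribosomal RNA depletion. Summed RPKM of 6 smooth muscle markers was 304.3 in small intestine and 1269 in colon by cDNA fragmentation, and 238.3 and 2412 by ribosomal RNA depletion, and 5 of these 6 were called higher in colon in each protocol. Summed RPKM of 6 pancreatic acinar markers was 18.6 and 700.9 by cDNA fragmentation, and 1408 and 293.6 by ribosomal RNA depletion, so that 5 were called higher in colon in the first protocol and 4 higher in small intestine in the second, while Amy2a5 had 0 reads in all 4 libraries. These acinar reads were 0.00209% to 0.197% of a library. Cela1 alone took 544.2 and 290.9 RPKM of the sums in colon, and without it the acinar sums were 0.349 and 156.7 by cDNA fragmentation and 912.5 and 2.70 by ribosomal RNA depletion. Fibroblast markers summed to 199.0 and 231.6 RPKM in the first pair of libraries and to 54.1 and 196.5 in the second, and without Dcn to 14.4 and 27.0 and to 31.8 and 53.2. The part of smooth muscle, acinar or fibroblast RNA in the ratios of the microvillus genes was not tested.

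**Figure D1:**
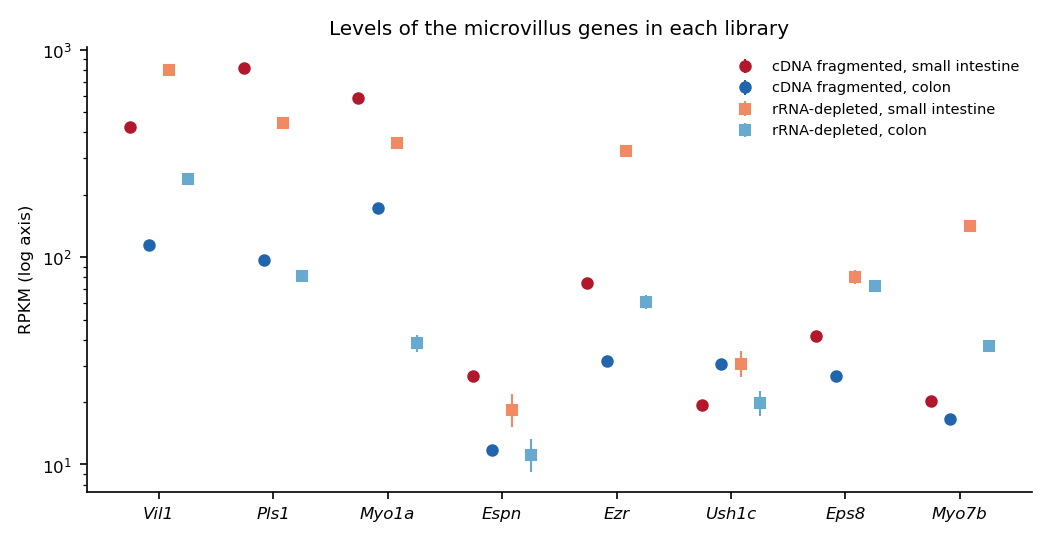
RPKM (log axis) of each microvillus gene in the 4 libraries, with exact 95% Poisson intervals as bars. Pls1, Vil1 and Myo1a are the highest 3 genes in both cDNA fragmented libraries, and Vil1 is the highest in both ribosomal RNA-depleted libraries.

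The sequences that follow lie before the starts of Vil1, Pls1 and Myo1a, the 3 genes called higher in small intestine in both protocols. Each is taken from the stretch of 250 bases before the RefSeq start, read 5′ to 3′ on the strand of the gene. GENCODE places the start of all 3 genes further upstream, and the last 8 bases for Vil1, 32 for Pls1 and 86 for Myo1a, which lie in annotated exons, are not printed. The RefSeq sequence was matched letter by letter to NCBIM37, the assembly also called mm9, and each had 1 match there. The printed part lies at chr1:74455708-74455949 on the plus strand for Vil1, at chr9:95745731-95745948 on the minus strand for Pls1 and at chr10:127142062-127142225 on the plus strand for Myo1a.
Vil1: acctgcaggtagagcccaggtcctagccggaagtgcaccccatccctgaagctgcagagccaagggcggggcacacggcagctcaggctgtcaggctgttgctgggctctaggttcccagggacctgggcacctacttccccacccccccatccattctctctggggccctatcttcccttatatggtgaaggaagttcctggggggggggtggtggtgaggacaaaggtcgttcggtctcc
Pls1: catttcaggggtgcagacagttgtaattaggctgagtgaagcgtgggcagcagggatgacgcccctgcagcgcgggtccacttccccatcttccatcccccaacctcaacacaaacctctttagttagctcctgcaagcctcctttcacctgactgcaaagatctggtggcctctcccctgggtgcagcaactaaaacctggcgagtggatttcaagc
Myo1a: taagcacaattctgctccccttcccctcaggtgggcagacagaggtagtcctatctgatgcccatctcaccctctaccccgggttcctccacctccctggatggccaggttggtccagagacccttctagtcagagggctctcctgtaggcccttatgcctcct
In all 3, the first exon block of the deposited table begins at the base after the 250-base stretch. Letters of 5 motifs were searched on both strands. Of 32851 stretches of this length in the table, 10.8% held TTTATG, the letters of the intestinal factors of the Cdx family, and 9.99% held AGATAA, those of the Gata family. The TATA box, TATAAA, was held by 12.4%, the Hnf4 letters CAAAGTCCA by 0.384% and the Hnf1 motif by 0.371%. None of the 5 occurred in the whole stretches of Vil1, Pls1 and Myo1a, which says only that these letters are not in this window. Of the 8 genes, 6 had an entry in the RefSeq table.

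Vil1 encodes villin, which bundles actin filaments and can also sever them in the presence of calcium. The gene lies at chr1:74455950-74482133 on the plus strand, and 19 exon blocks with 2434 bases were counted. Vil1 had 421.6 RPKM in the small intestine and 114.9 in the colon by cDNA fragmentation, and 796.5 and 237.2 by ribosomal RNA depletion. Both small intestine libraries were higher than both colon libraries. The log2 ratio (colon over small intestine) was -1.87 (-1.91 to -1.84) and -1.75 (-1.83 to -1.67), which is a 3.67-fold and a 3.36-fold higher level in small intestine. Vil1 thus had nearly the same ratio in both protocols, and the difference between them, 0.13 on the log2 scale, was the smallest in size of the 8 genes. Ratios were also calculated by exon block, for blocks with at least 20 reads in each tissue. All 18 such blocks of Vil1 lay between -2.36 and -1.54 by cDNA fragmentation, and all 17 between -2.49 and -1.20 by ribosomal RNA depletion. Of the annotated exonic bases of Vil1, 741 lie outside the deposited blocks and were not counted.

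Pls1 encodes plastin 1, a second bundler of the core filaments. It lies at chr9:95653061-95745730 on the minus strand and was counted on 16 blocks with 3695 bases. Pls1 had 816.6 RPKM in the small intestine and 97.1 in the colon by cDNA fragmentation, and 440.6 and 80.6 by ribosomal RNA depletion. The small intestine levels were again above both colon levels, and Pls1 was the highest of the 8 genes in small intestine by cDNA fragmentation but the third in the colon library of this protocol. Its log2 ratio was -3.07 (-3.10 to -3.04) and -2.45 (-2.55 to -2.35), or 8.41-fold and 5.47-fold higher in small intestine. The difference was found in every block compared, with 15 blocks between -3.93 and -2.71 by cDNA fragmentation and 12 blocks between -3.62 and -1.11 by ribosomal RNA depletion. The remaining blocks, block 1 among them, had too few reads. The last block, which holds most of the 3′ untranslated region, took 49747 of the 67846 reads in small intestine by cDNA fragmentation, and its ratio was -3.05.

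Espn encodes espin, which also cross-links actin filaments into tight bundles. It lies at chr4:151494440-151526480 on the minus strand and was counted on 17 blocks with 3144 bases. Counted on all 17 blocks, Espn was among the low genes of the group. It had 26.7 RPKM in the small intestine and 11.7 in the colon by cDNA fragmentation, and 18.3 and 11.1 by ribosomal RNA depletion. Both small intestine levels were above both colon levels. Its log2 ratio was -1.19 (-1.31 to -1.08) and -0.72 (-1.10 to -0.35), or 2.28-fold and 1.65-fold higher in small intestine, and the 3-fold rule did not call it in either protocol.

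The reads of Espn lay at the 3′ end of the gene. The GENCODE annotation has a short Espn transcript that starts inside the gene and is made of the last 5 blocks, with 1123 bases. These 5 blocks held all 1886 reads on Espn in small intestine by cDNA fragmentation and 909 of 911 in colon. In the ribosomal RNA-depleted libraries they held 104 of 117 reads in small intestine and 106 of 121 in colon, or 88.9% and 87.6%. The 12 blocks upstream had 0 and 2 reads in small intestine and colon by cDNA fragmentation and 13 and 15 by ribosomal RNA depletion. Their level was 3.16 RPKM in small intestine and 2.13 in colon by ribosomal RNA depletion and 0.0399 in colon by cDNA fragmentation, and the 0 reads in small intestine by cDNA fragmentation allow up to 0.0660 RPKM. Counted on the 5 blocks of the short transcript alone, Espn had 74.7 and 32.6 RPKM by cDNA fragmentation and 45.5 and 27.1 by ribosomal RNA depletion, and the log2 ratios of -1.19 (-1.31 to -1.08) and -0.75 (-1.15 to -0.34) were close to those of the whole gene. The choice of these 5 blocks was made after their reads had been seen.

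The first block of the short transcript, block 13 from the 5′ end, belongs to no other annotated coding transcript of Espn. It had 53 and 20 reads in small intestine and colon by cDNA fragmentation and 5 and 8 by ribosomal RNA depletion, so reads on this block were found in all 4 libraries. The start of its coding part lies at chr4:151502879-151502918 on the minus strand (NCBIM37) and is printed with the start codon in capitals. The RefSeq start of the short transcript coincides with the start of block 13, and the 250 bases before it lie at chr4:151503035-151503284. In these the capitals mark CATAAA, the Cdx letters on the opposite strand, 190 bases before the start. The 250 bases before the RefSeq start of the long transcript lie at chr4:151526499-151526748, and held none of the 5 motifs.
Espn, block 13, start of coding part: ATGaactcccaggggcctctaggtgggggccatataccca
Espn, before the short transcript: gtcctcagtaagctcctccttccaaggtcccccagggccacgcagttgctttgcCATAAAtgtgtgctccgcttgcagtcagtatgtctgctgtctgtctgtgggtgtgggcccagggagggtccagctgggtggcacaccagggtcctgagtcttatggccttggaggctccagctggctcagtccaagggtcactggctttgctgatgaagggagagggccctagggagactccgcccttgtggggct
Espn, before the long transcript: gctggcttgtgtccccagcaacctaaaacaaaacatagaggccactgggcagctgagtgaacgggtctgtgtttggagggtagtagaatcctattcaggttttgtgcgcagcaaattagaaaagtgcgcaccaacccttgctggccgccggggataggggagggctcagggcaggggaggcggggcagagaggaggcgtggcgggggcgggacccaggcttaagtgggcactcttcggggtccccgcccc
These Cdx letters were the only match to any of the 5 motifs in the printed or unprinted starts of the 6 genes with an entry. As 10.8% of all starts hold these letters, the match is given as a description.

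**Figure D2:**
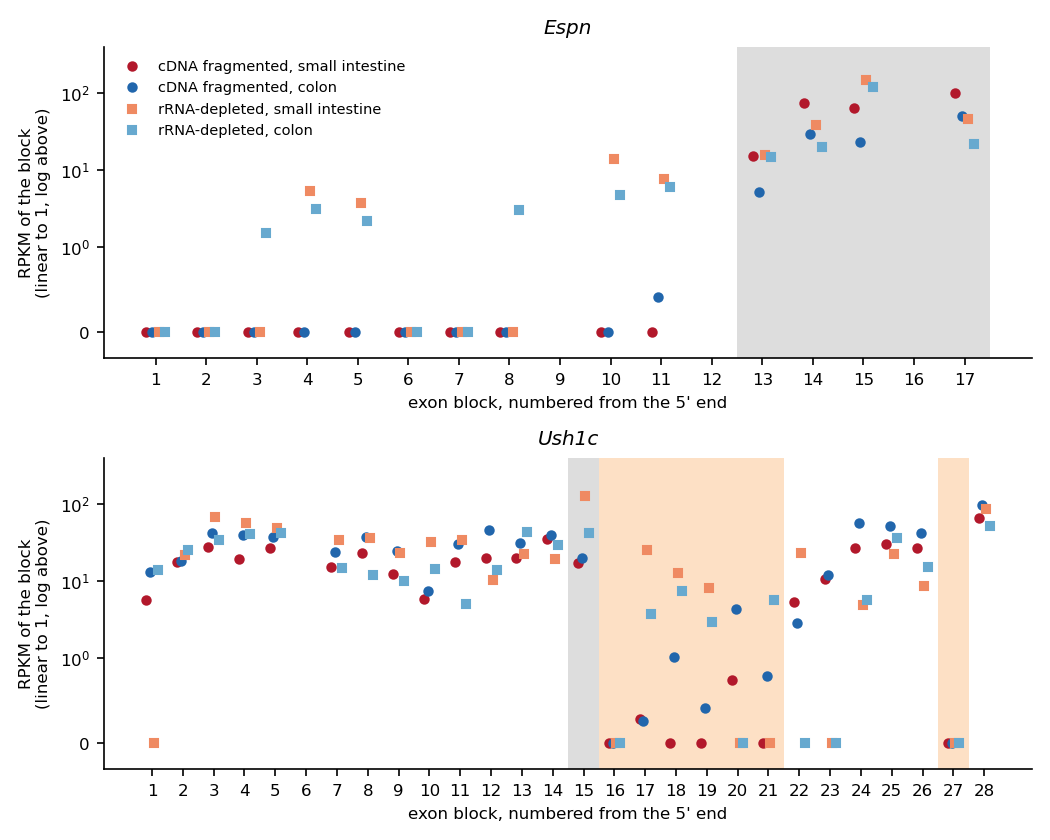
RPKM of each exon block of Espn and Ush1c, numbered from the 5′ end, in the 4 libraries (axis linear to 1 and logarithmic above, blocks shorter than a read left out). Grey bands mark the short Espn transcript and Ush1c block 15, and orange bands the Ush1c blocks absent from one of the annotated transcripts. Espn reads lie mostly on blocks 13 to 17 (100% and 99.8% by cDNA fragmentation, 88.9% and 87.6% by ribosomal RNA depletion), and in the cDNA fragmented libraries blocks 16 to 21 of Ush1c (0.137 and 0.952 RPKM together) are far below the blocks that every coding transcript shares (30.0 and 47.0).

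Myo1a encodes brush border myosin I, the motor that tethers the actin core to the lateral membrane. It lies at chr10:127142226-127157943 on the plus strand and was counted on 27 blocks with 3353 bases. Myo1a had 586.9 RPKM in the small intestine and 171.7 in the colon by cDNA fragmentation, and 353.1 and 38.4 by ribosomal RNA depletion. Small intestine was above colon in both pairs, and Myo1a was the highest of the 8 genes in the cDNA fragmented colon library but the fifth in the ribosomal RNA-depleted one. The log2 ratio was -1.77 (-1.80 to -1.75) by cDNA fragmentation and -3.20 (-3.35 to -3.05) by ribosomal RNA depletion, or 3.42-fold and 9.19-fold higher in small intestine. The intervals of the protocols were apart, and so were the exon blocks, with 27 blocks between -2.33 and -1.32 by cDNA fragmentation and 5 blocks between -3.34 and -3.03 by ribosomal RNA depletion.

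Myo7b encodes myosin VIIB, the motor of the tip link complex. It lies at chr18:32118888-32196615 on the minus strand and was counted on 47 blocks with 6589 bases. Myo7b had 20.1 RPKM in the small intestine and 16.5 in the colon by cDNA fragmentation, and 140.7 and 37.2 by ribosomal RNA depletion. Both ribosomal RNA-depleted libraries were higher than both cDNA fragmented ones. The log2 ratio was -0.29 (-0.36 to -0.21) by cDNA fragmentation and -1.92 (-2.04 to -1.80) by ribosomal RNA depletion, so the fold in favour of small intestine was 1.22 in the first and 3.78 in the second. The difference between protocols, -1.63, was the largest in size of the 8 genes. It was seen in the blocks compared, since 28 blocks lay between -0.68 and 0.08 by cDNA fragmentation and 19 blocks between -3.14 and -0.73 by ribosomal RNA depletion, without overlap.

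Ezr encodes ezrin, the linker between actin filaments and membrane proteins. It lies at chr17:6942390-6987133 on the minus strand and was counted on 13 blocks with 3070 bases. Ezr had 75.4 RPKM in the small intestine and 31.6 in the colon by cDNA fragmentation, and 325.2 and 60.8 by ribosomal RNA depletion. Small intestine was above colon in both pairs, but the cDNA fragmented small intestine level and the ribosomal RNA-depleted colon level were near each other. The log2 ratio was -1.25 (-1.32 to -1.18) and -2.42 (-2.55 to -2.29), or 2.39-fold and 5.35-fold higher in small intestine, so that the 3-fold rule called Ezr in the second protocol only. With median-of-ratios scaling Ezr was called in the first protocol too, at -1.64, and the count there was 4 of the 8 genes, beside 3.52% of all genes. Of 10 blocks compared by cDNA fragmentation 9 lay below 0, from -1.83 to 0.06, and the 6 blocks compared by ribosomal RNA depletion lay between -2.59 and -1.93. Block 13, the last one with most of the 3′ untranslated region, had a ratio of -1.32 and -2.59 in the protocols.

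Ush1c encodes harmonin, the scaffold that holds the cadherin tails of the tip links and the motor together. It lies at chr7:53450720-53493873 on the minus strand and was counted on 28 blocks with 3135 bases. Ush1c had 19.3 RPKM in the small intestine and 30.4 in the colon by cDNA fragmentation, and 30.6 and 19.7 by ribosomal RNA depletion. The direction thus differed between the protocols, with colon 1.57-fold higher in the first and small intestine 1.55-fold higher in the second. The log2 ratio was 0.65 (0.56 to 0.75) by cDNA fragmentation and -0.63 (-0.92 to -0.35) by ribosomal RNA depletion, and neither interval includes 0. The median over all genes by cDNA fragmentation was itself 0.41, and 60.0% of genes had a lower ratio than Ush1c. With median-of-ratios scaling the cDNA fragmented ratio of Ush1c was 0.27. By cDNA fragmentation none of 16 blocks lay below 0, from 0.06 to 1.18, and the 1 block with enough reads by ribosomal RNA depletion had -0.71. The direction therefore did not rest on single exons in the cDNA fragmented libraries, whereas the 195 and 215 reads of the ribosomal RNA-depleted libraries leave the exons of Ush1c mostly unresolved.

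Annotated harmonin transcripts differ in their middle and 3′ blocks, so Ush1c was also counted by groups of blocks. The 20 blocks shared by every coding transcript, chosen after the reads had been seen, had 30.0 and 47.0 RPKM by cDNA fragmentation and 39.7 and 28.3 by ribosomal RNA depletion, with log2 ratios of 0.65 (0.55 to 0.75) and -0.49 (-0.80 to -0.18). The opposite directions were therefore also found on the shared blocks. Blocks 16 to 21, which among coding transcripts only the longest hold, are 6 blocks with 974 bases. They had 3 and 23 reads in small intestine and colon by cDNA fragmentation, and 19 and 11 by ribosomal RNA depletion. Their levels were 0.137 and 0.952 RPKM by cDNA fragmentation and 9.58 and 3.25 by ribosomal RNA depletion, all below the shared blocks. Block 15, which belongs to other transcripts than blocks 16 to 21, had 24, 31, 16 and 9 reads, or 17.2, 20.2, 126.8 and 41.7 RPKM, in the same order of libraries. Block 27 had 0 reads in all 4 libraries, which allow up to 1.14 and 1.03 RPKM by cDNA fragmentation and 12.6 and 7.37 by ribosomal RNA depletion. The sequences of block 15 (chr7:53471388-53471449), of block 16 (chr7:53470301-53470350) and of 109 of the 117 bases of block 27 (chr7:53452082-53452190), the coding bases of 1 annotated transcript there, all on the minus strand of NCBIM37, show the exons by which the transcripts differ.
Ush1c, block 15: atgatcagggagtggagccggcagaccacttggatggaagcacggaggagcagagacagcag
Ush1c, block 16: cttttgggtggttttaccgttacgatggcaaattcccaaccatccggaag
Ush1c, block 27: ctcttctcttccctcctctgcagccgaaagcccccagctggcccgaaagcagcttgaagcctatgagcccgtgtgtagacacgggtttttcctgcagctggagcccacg

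Eps8 encodes a capping and bundling protein of the filament ends at the microvillus tip. It lies at chr6:137425766-137603397 on the minus strand and was counted on 22 blocks with 4402 bases. Eps8 had 41.6 RPKM in the small intestine and 26.8 in the colon by cDNA fragmentation, and 80.2 and 72.4 by ribosomal RNA depletion. The levels differed more between protocols than between tissues. The log2 ratio was -0.64 (-0.71 to -0.57) and -0.15 (-0.29 to -0.01), or 1.55-fold and 1.11-fold higher in small intestine, and the upper end of the second interval was close to 0. Blocks of Eps8 lay on both sides of 0, with 15 of 20 below 0 by cDNA fragmentation (-0.93 to 0.44) and 7 of 10 by ribosomal RNA depletion (-1.23 to 1.14). The first 2 blocks of Eps8, which are noncoding, had 0 reads in all 4 libraries.

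**Figure D3:**
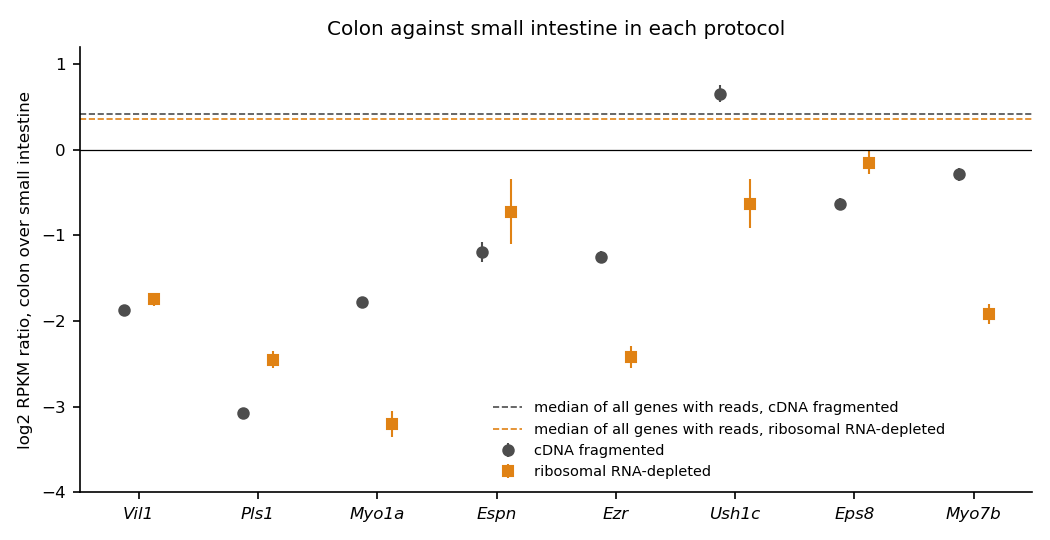
Log2 RPKM ratio of colon over small intestine for each microvillus gene in each protocol, with exact 95% intervals that cover counting error only. All points lie below 0 except Ush1c by cDNA fragmentation (0.65).

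Set side by side, the 8 genes differed in how far the protocols gave the same ratio. The ribosomal RNA-depleted ratio was lower than the cDNA fragmented one by over 1 on the log2 scale for Myo7b (-1.63), Myo1a (-1.43), Ush1c (-1.29) and Ezr (-1.17). It was higher for Pls1 (0.62), Eps8 (0.49), Espn (0.47) and Vil1 (0.13). The pairs of libraries differ in the RNA that was selected according to the labels, in fragmentation and possibly in the mice, and these cannot be told apart.

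The order of the 8 genes within a library also differed. It depends on the deposited blocks, which hold most of the 3′ untranslated region of Pls1 but end in coding bases for Vil1. By cDNA fragmentation in small intestine the last block of Pls1 had 1233 RPKM, beside 816.6 over the whole gene. It also depends on the length counted for Espn, since its 12 upstream blocks had few or no reads. On the 5 blocks of its short transcript Espn had 74.7 and 32.6 RPKM by cDNA fragmentation, above Eps8 in both libraries. By ribosomal RNA depletion it had 45.5 and 27.1 there, above the whole-gene level of Ush1c. Ush1c was likewise higher on its shared blocks, with 30.0, 47.0, 39.7 and 28.3. The intervals cover counting error only and not these differences between genes. The orders below use all blocks. By cDNA fragmentation the order from high to low in small intestine was Pls1, Myo1a, Vil1, Ezr, Eps8, Espn, Myo7b and Ush1c, and only the last 2 had intervals that overlapped. In the colon library of this protocol the order was Myo1a, Vil1, Pls1, Ezr, Ush1c, Eps8, Myo7b and Espn, with overlapping intervals for Ezr and Ush1c. In small intestine by ribosomal RNA depletion it was Vil1, Pls1, Myo1a, Ezr, Myo7b, Eps8, Ush1c and Espn, and the intervals of Myo1a and Ezr overlapped. In the colon library of this protocol it was Vil1, Pls1, Eps8, Ezr, Myo1a, Myo7b, Ush1c and Espn, with overlaps of Pls1 with Eps8 and of Myo1a with Myo7b. Vil1, Pls1 and Myo1a thus led in 3 of the 4 libraries, while Myo1a stood behind Eps8 and Ezr in the ribosomal RNA-depleted colon. Among all genes Vil1 ranked 237 in small intestine and 871 in colon by cDNA fragmentation, and 54 and 257 by ribosomal RNA depletion, when genes were ordered by RPKM. Pls1 ranked 117, 995, 106 and 926, and Myo1a ranked 163, 637, 136 and 2014 in the same order.

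The reads of the 8 genes were spread unevenly along their exons in a way that depended on the protocol. By cDNA fragmentation the last 1000 exonic bases of Myo7b held 46.2% of its reads in small intestine and 49.0% in colon, but by ribosomal RNA depletion 8.16% and 8.92%. For Pls1 these shares were 56.4%, 60.8%, 30.4% and 25.5%, and for Ezr 58.5%, 56.1%, 36.6% and 30.0%, in the order of small intestine and colon by cDNA fragmentation and then by ribosomal RNA depletion. Both genes thus had more of their reads near the 3′ end by cDNA fragmentation. Eps8 had smaller shares in this stretch, 21.2%, 13.8%, 14.6% and 11.3%. Within a protocol the tissues were close for most genes, and the gaps were widest for Vil1, which had 46.5% and 38.3% by ribosomal RNA depletion, for Myo1a, which had 35.8% and 43.8% by cDNA fragmentation, and for Eps8 by cDNA fragmentation. Counted on this stretch alone, the log2 ratio of Eps8 was -1.26 by cDNA fragmentation and -0.52 by ribosomal RNA depletion, further from 0 than over the whole gene, and those of Vil1 were -1.77 and -2.03. The ratio of Myo1a on this stretch was -1.48 by cDNA fragmentation, so that its call was lost and 2 of the 8 genes were called in this protocol, beside 2.88% of all genes.

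**Figure D4:**
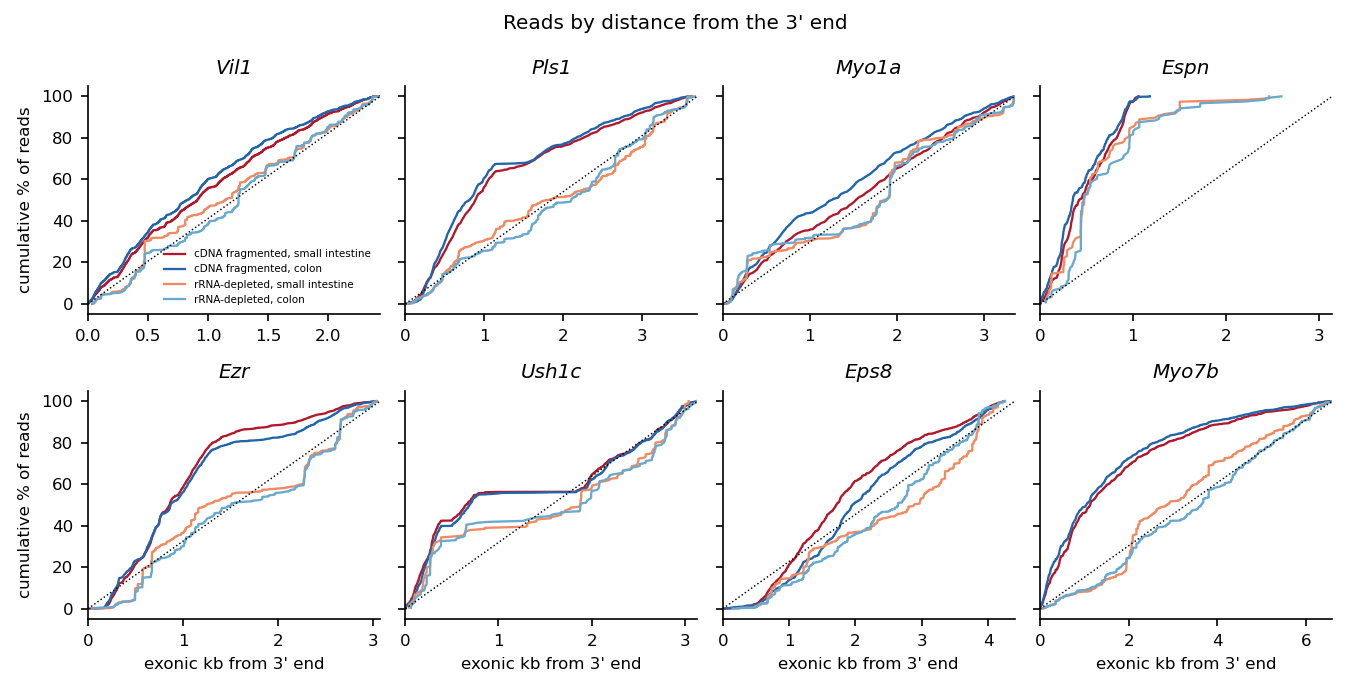
Cumulative percentage of reads of each microvillus gene against the distance in exonic kb from the 3′ end of its counted blocks, in the 4 libraries. A dotted line marks even coverage. The counted blocks of Vil1 and Espn end before the annotated gene end. The curves of Myo7b by cDNA fragmentation rise within the last 1 kb (46.2% and 49.0% of reads), and those by ribosomal RNA depletion follow a shallower course (8.16% and 8.92%).

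Reads of the microvillus genes were stacked on the same start points, most of all where levels were highest. Here a start point means a place on 1 strand at which 1 or more reads begin. Pls1 had 12.3 reads per start point in small intestine by cDNA fragmentation, the highest value of the 8 genes in any library, and the lowest was 1.38. Over the whole of that library 22484041 reads lay on 7337402 start points, so stacking was not particular to these genes. Ezr, Espn, Eps8, Myo7b and Ush1c had 2.22, 2.04, 1.54, 1.42 and 1.38 reads per start point there. In this library the start points of Pls1 came to 74.9% of the bases of its exon blocks on both strands. Those of Myo1a came to 71.7% and those of Vil1 to 68.1%, beside 43.4%, 60.5% and 51.6% for Pls1, Myo1a and Vil1 in colon. A read of 35 colors cannot begin close to the end of a block, so the share of usable positions filled was higher than these values. When start points were counted in place of reads, the cDNA fragmented log2 ratios of Pls1, Vil1 and Myo1a were -0.85, -0.47 and -0.31, and none of the 8 genes was called, beside 2.42% of all genes for small intestine. The number of positions sets an upper limit on start points that it does not set on reads. By ribosomal RNA depletion start points came to at most 29.7% of the bases of 1 strand. There the start point ratios of Pls1, Vil1 and Myo1a were -1.61, -1.18 and -2.11, and 2 of the 8 genes were called, beside 3.54% of all genes.

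In the ribosomal RNA-depleted libraries, 95.7% to 100% of the reads on each of the 8 genes lay on the strand of the gene, and in the cDNA fragmented libraries, which do not keep strand, 43.5% to 53.7%. None of the 8 genes shares exonic bases with another annotated coding gene. All strings of 35 bases in their blocks occur once among the exons, except in Pls1 with 99.8%.

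A list of 28 further genes, 11 of them paralogs of the 8 genes that need not be microvillus genes, was compared in the same way. All 28 were found. By cDNA fragmentation 3 were called higher in small intestine, 1 in colon and 24 in neither, and by ribosomal RNA depletion 8, 2 and 18. The shares of all genes called were 2.72% and 3.21% in the first protocol and 3.69% and 6.57% in the second, so the counts for colon were near the background. All calls for colon were among the paralogs. Over the 27 of the 28 genes with reads in both tissues, the median log2 ratio was 0.06 and -0.69, between those of the 8 genes and of all genes. The first of these medians turned below 0, to -0.33, with median-of-ratios scaling. The protocols gave the same call for Pdzk1 and Cobl in small intestine and for Gsn in colon. The partners of harmonin in the tip link complex, Cdhr2, Cdhr5, Anks4b and Calml4, all had ratios below 0 in both protocols. Cdhr2, a protocadherin of the links, had 266.3 RPKM in the small intestine and 108.9 in the colon by cDNA fragmentation, and 357.6 and 75.4 by ribosomal RNA depletion (log2 ratios -1.29 and -2.25). Anks4b, which binds harmonin, had 67.2 and 48.0 by cDNA fragmentation, and 83.5 and 17.9 by ribosomal RNA depletion (-0.49 and -2.23). For Cdhr2 and Anks4b, as for Myo7b and Ush1c of the same complex, the ribosomal RNA-depleted ratio was the lower one, while Cdhr5, the other protocadherin, had -0.83 and -0.19.

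Among scaffolds of ezrin, Slc9a3r1 had 133.4 RPKM in the small intestine and 56.2 in the colon by cDNA fragmentation, and 454.8 and 112.3 by ribosomal RNA depletion. Its log2 ratios of -1.25 and -2.02 lay near those of Ezr. Pdzk1, a further scaffold, had -7.32 and -3.75. However, 1332 of its exonic bases lie in blocks that overlap another annotated coding gene, and its values are uncertain. Cobl, which nucleates actin filaments, had 31.5 and 4.78 RPKM by cDNA fragmentation, and 114.7 and 21.4 by ribosomal RNA depletion (-2.72 and -2.42). The motor Myh14 had 1.73 and 1.80 RPKM by cDNA fragmentation, and 63.2 and 5.86 by ribosomal RNA depletion (0.06 and -3.43), a larger gap between protocols than that of Myo7b. The first of these ratios turned below 0, to -0.33, with median-of-ratios scaling.

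The list holds 11 paralogs of the microvillus genes. By cDNA fragmentation 1 was called higher in small intestine and 1 in colon, by ribosomal RNA depletion 2 and 2, beside 2.72% and 3.21% and then 3.69% and 6.57% of all genes, and the median log2 ratio over the 10 with reads in both tissues was 0.49 and 0.61. Gsn, which encodes gelsolin, a relative of villin, had 33.0 RPKM in the small intestine and 105.7 in the colon by cDNA fragmentation, and 28.2 and 87.8 by ribosomal RNA depletion (log2 ratios 1.68 and 1.64), and its call was lost in both protocols with median-of-ratios scaling. Vill, which encodes villin-like protein, had 0.351 and 1.58 RPKM by cDNA fragmentation, and 0.169 and 3.65 by ribosomal RNA depletion. Its log2 ratio was 2.17 by cDNA fragmentation, and 4.44 (1.87 to 9.78) by ribosomal RNA depletion, where small intestine had 1 read and colon 37. Both Gsn and Vill lay on the colon side, opposite to Vil1. Pls3, a plastin of many tissues, had 9.57 and 22.9 RPKM by cDNA fragmentation, and 2.87 and 7.06 by ribosomal RNA depletion (1.26 and 1.30), opposite to Pls1. Myo7a, a relative of Myo7b known from the inner ear, had 2.14 and 0.855 RPKM by cDNA fragmentation, and 9.61 and 0.859 by ribosomal RNA depletion (-1.32 and -3.48), with the lower ratio in the same protocol as Myo7b. Lcp1, the plastin of leukocytes, had 50.9 and 15.8 RPKM by cDNA fragmentation, and 15.2 and 20.9 by ribosomal RNA depletion (-1.69 and 0.45). Summed RPKM of 6 leukocyte markers was 248.9 and 192.9 in the first pair of libraries and 57.8 and 80.9 in the second, and without Lyz2, the highest of them in both colon libraries, 168.0 and 94.4 in the first and 44.8 and 45.0 in the second. The part of leukocyte RNA in the ratios of Lcp1 was not tested.

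**Figure D5:**
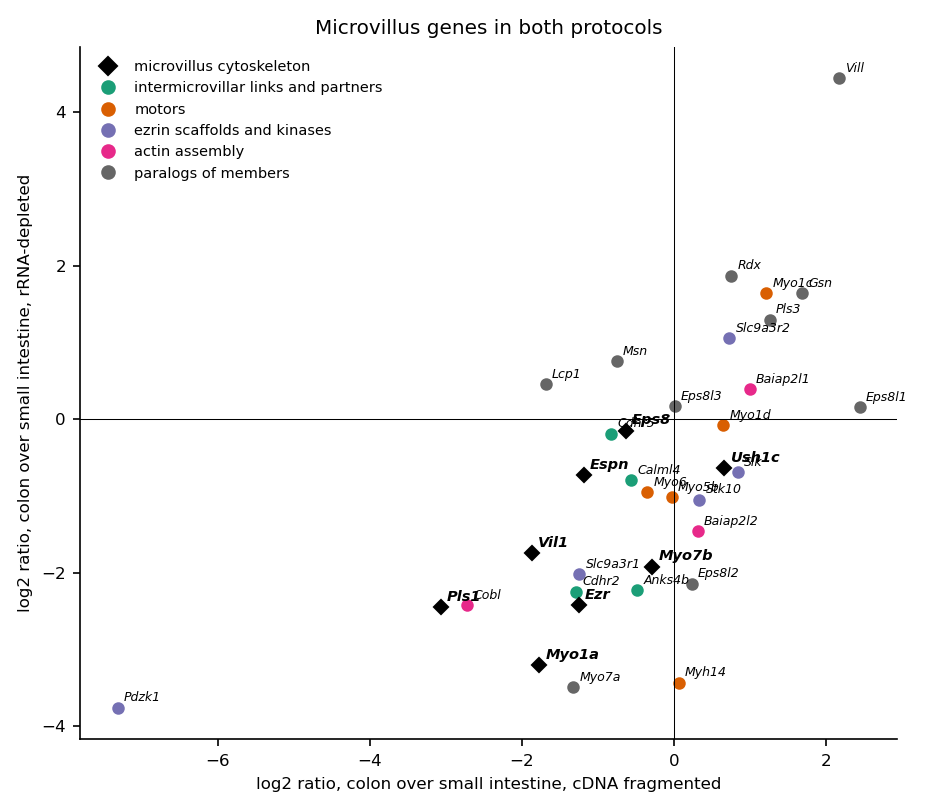
Log2 ratio of colon over small intestine by cDNA fragmentation (horizontal) and by ribosomal RNA depletion (vertical) for the 8 microvillus genes and the further genes of the list. Vil1, Pls1 and Myo1a lie low on both axes, and Gsn, Vill and Pls3 lie above 0 on both.

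The genes nearest to Vil1 over the 4 libraries were sought among the 3236 genes with at least 100 reads in each library. Nearness was the Euclidean distance of log2 of RPKM plus 0.1. The 5 nearest were Hadh (1.37), Rfk (1.45), P4hb (1.45), Clec2h (1.47) and H2-K1 (1.57). Pls1 was at place 15 with a distance of 2.03, and Myo1a at place 99 with 2.97. Among the other microvillus genes Ezr was at place 284, Eps8 at 769, Myo7b at 1053, Ush1c at 1532 and Espn at 1957. The distance includes the level as well as the ratio, so the low genes of the group stand far from Vil1 by level alone.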

How the data were processed

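The authors deposited, for each of 4 libraries, the placements of single reads (other values: position, strand and number of mismatches, with no normalization), reports of read numbers, and tables of exon blocks and exon-exon junctions. Per the file headers, 35 colors of each SOLiD read had been matched to these RefSeq blocks and junctions of mm9 with up to 3 mismatches, and the files hold uniquely placed reads. The reports give 77504263 reads for small intestine and 83302412 for colon by cDNA fragmentation, and 36419942 and 37466674 by ribosomal RNA depletion. The cDNA fragmented totals equal those that the study reports, whereas the study reports far more reads for its RNA fragmented libraries.

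Reads on exon blocks were counted, with 3 bases of tolerance at block borders, and divided by exonic length and all uniquely placed reads (RPKM). Placements on junctions were not counted, since 86.1% to 90.2% of them had 3 mismatches, beside 14.8% to 18.9% on exons. They were 0.754% to 0.822% of reads. A gene counted as present if it exceeded 0.01 RPKM on 2 or more start points in either tissue. The 3-fold rule with its penalty of 1 follows the study. Intervals were exact Poisson intervals for levels and Clopper-Pearson intervals of the share of reads for ratios, at the 95% level. The intervals take each read as independent and cover counting error only. Amplified reads are not independent molecules, so the intervals can be too narrow even for counting error. A count of 0 was set against 3 reads. Annotation was GENCODE M1 (NCBIM37), and promoters came from the RefSeq table of GRCm38.p6.

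The 8 genes, the lists and the rule for named genes were chosen with earlier results of these data known. Named were the 8 genes, 12 of the 28 further genes by value, those with opposite directions and intervals clear of 0 in the protocols, and the 5 genes nearest to Vil1. Alternatives were other normalizations, at most 1 mismatch, start points, the last 1000 exonic bases, the strand of the gene, a penalty of 0.1, a fold of 2 and no filter on presence, and scaling to epithelial markers, other scalings of the further genes, counting by transcript blocks, a limma fit of tissue with protocol as a term and leaving the highest marker out of a sum were added after the data were seen. The 3-fold rule, the ratio interval and the limma fit were tested on simulated gene counts. Python 3.11.15, numpy 2.4.6, pandas 2.3.3, scipy 1.17.1, matplotlib 3.10.9, R 4.3.3 and limma 3.58.1 were used.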

Additional observations from a re-analysis of the deposited data

Results flagged for a closer look

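Ush1c and 6 of the 28 further genes had ratios on opposite sides of 0 in the protocols with both counting intervals clear of 0. Each protocol has 1 library per tissue, and the difference between protocols was not tested. The share of all genes with such opposite ratios was not counted, so this number is a description only. For Stk10, Baiap2l2 and Eps8l2 the opposite directions depended on the scaling, since their cDNA fragmented ratios turned below 0 with median-of-ratios and epithelial scaling. The ribosomal RNA-depleted ratio of Lcp1 came to 0.10 and 0.02 with these scalings. The log2 ratio (colon over small intestine) for Ush1c was 0.65 by cDNA fragmentation and -0.63 by ribosomal RNA depletion. The first of these came to 0.27 with median-of-ratios scaling. Among kinases that act on ezrin, Slk had 0.84 and -0.69 and Stk10 had 0.33 and -1.05. Baiap2l2, which shapes membranes at actin filament ends, had 0.31 and -1.46. Eps8l2, a paralog of Eps8, had 0.23 and -2.14. Lcp1 and Msn moved the other way, Lcp1 with -1.69 and 0.45, and Msn, which encodes moesin, a relative of ezrin, with -0.76 and 0.76.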

How the results depend on the processing

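With start points in place of reads, 0 of the 8 genes by cDNA fragmentation and 2 by ribosomal RNA depletion were called higher in small intestine. The shares of all genes were 2.42% and 3.54%. The median log2 ratio of the 8 genes was -0.48 and -1.30. With a fold of 2, 5 were called by cDNA fragmentation, beside 4.48% of all genes. The median was -1.61 and -2.19 with median-of-ratios scaling, which shifted all genes by -0.39 and -0.35, -1.41 and -2.05 with upper quartile scaling, and -1.63 and -2.27 with scaling to the epithelial markers. Of the 28 further genes, median-of-ratios scaling called 5 higher in small intestine by cDNA fragmentation (beside 3.52% of all genes), 9 by ribosomal RNA depletion (5.05%), and 0 higher in colon in either protocol (2.17% and 4.16%), and a penalty of 0.1 called 2 and 4 higher in colon, beside 8.25% and 16.3% of all genes. None of the 8 genes reversed its direction under these alternatives, and Ush1c stayed above 0 by cDNA fragmentation (0.24 to 0.65). By cDNA fragmentation the median of the further genes and the ratio of Myh14 turned to -0.33 with median-of-ratios, -0.13 with upper quartile and -0.35 with epithelial scaling. With median-of-ratios and epithelial scaling Stk10 turned to -0.056 and -0.077, Baiap2l2 to -0.075 and -0.096, and Eps8l2 to -0.16 and -0.18. By ribosomal RNA depletion the median of the further genes was -1.04 and -1.12 with these scalings. With limma and protocol as the replicate block, 4 of the 8 genes were called for small intestine and 0 for colon. There is 1 library per tissue and protocol, and the mice of each library are not given, so protocol was the only pairing used. With 1 library, dissection and library cannot be told apart from tissue, and the 117 to 215 reads on Espn and Ush1c in the ribosomal RNA-depleted libraries limit what can be said of their exons.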
